A study of Mus musculus with 4 samples.

Results

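Ly6a, Ly6c1, Ly6c2 and Ly6e, 4 mouse genes for small surface antigens of the Ly6/uPAR family, were followed across the cells of Mst1/2-deficient and wild-type mouse hearts. They were taken by name, 4 of 29245 gene columns, and read in wells with at least 10000 UMIs (unique molecular identifiers, 1 per captured RNA molecule) and 300 genes. All 4 were detected and all 4 passed the filter on low counts in every non-cardiomyocyte comparison; Ly6c2 did not pass it in cardiomyocyte-like or endothelial-like wells of the cardiomyocyte fraction. The genes were selected on their levels in these wells by animal, fraction and class, so levels by class and fraction are given as a description, with no test. The levels of single animals were in view as well, so the genotype tests below are no independent evidence for the members.

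Ly6 proteins share a compact disulfide-bonded fold and are held at the outer face of the cell membrane by a glycosylphosphatidylinositol (GPI) lipid anchor. Ly6a encodes Sca-1, used to sort mouse haematopoietic stem cells and also carried by endothelial cells and tissue fibroblasts. Ly6c1 and Ly6c2 encode the Ly6C antigens, of which Ly6C on circulating cells marks inflammatory monocytes. Ly6e encodes a widely expressed member that alters the entry of several viruses, and the genes of this family are known to respond to interferons.

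The mutant animals, KO1 and KO2, carried a Mst1/2-deficient genotype; Stk4 encodes MST1 and Stk3 encodes MST2, kinases of the Hippo pathway. The comparison animals were wild type, WT1 and WT2. All hearts were C57BL/6. The labels do not give the allele, the cells in which it was deleted, the age of the mice or whether the hearts had been injured. Each heart suspension was spun at low speed into a cardiomyocyte fraction (CM) and a non-cardiomyocyte fraction (NCM). The 2 animals of a genotype shared 1 chip per fraction, so within a fraction the chip and the genotype cannot be told apart. The animal is the replicate, with 2 against 2.

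The NCM fraction gave 715 and 747 kept wells in KO1 and KO2, against 692 and 703 in WT1 and WT2. The CM fraction gave 264 and 385 wells in KO1 and KO2, against 210 and 274 in WT1 and WT2. Mitochondrial genes took 58.1% and 36.5% of NCM UMIs in KO1 and KO2, against 7.45% and 11.2% in WT1 and WT2; in CM wells they took 35.7% to 47.2% in all animals. Levels are therefore UMIs per 1000000 UMIs outside mitochondrial and haemoglobin genes, written here as CPM. Median depth on that scale ran from 24379 to 126901 UMIs a well. Of 3017 distinct barcodes, 856 were kept in more than 1 library, and the doublet caller marked 33 of 3990 wells. Stk4 stood at 45.8 and 37.5 CPM in KO NCM wells, against 53.1 and 47.3 in WT NCM wells; Stk3 stood at 29.0 and 26.3 in KO, against 23.5 and 38.6 in WT. Which exons were deleted is not stated, so these UMIs do not check the genotype label. In 20 negative control wells 2 UMIs of Ly6a, 2 of Ly6c1, 4 of Ly6e and 0 of Ly6c2 were counted among 3591 UMIs.

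All 4 genes lie in the Ly6 cluster of chromosome 15 (mm10, GENCODE M21). Ly6e (ENSMUSG00000022587) spans chr15:74955051-74959905 on the plus strand. Ly6a (ENSMUSG00000075602) spans chr15:74994877-74998031, Ly6c1 (ENSMUSG00000079018) chr15:75044018-75048830 and Ly6c2 (ENSMUSG00000022584) chr15:75108158-75111970, all on the minus strand. No other annotated gene overlaps them. Ly6c1 and Ly6c2 are near copies, 59327 bases apart. Their coding sequences, 396 bases each, were identical at 387 positions (97.7%). Ly6a was 85.1% identical to Ly6c1 over aligned coding bases, and Ly6e was 63.7% to 65.4% identical to the other members. The first 90 coding bases of the 2 copies are shown because the counts below rest on telling them apart; capitals mark the 6 differing bases.
Ly6c1: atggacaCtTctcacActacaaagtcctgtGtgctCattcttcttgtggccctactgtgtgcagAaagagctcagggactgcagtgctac
Ly6c2: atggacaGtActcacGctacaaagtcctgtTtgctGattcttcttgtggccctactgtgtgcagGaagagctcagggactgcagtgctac

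A read of 50 bases cut from the Ly6c1 transcript would also match another gene at 36.7% of its positions, and at 31.7% it would match Ly6c2. For Ly6c2 the share matching Ly6c1 was 32.6%. Ly6a shared 14.5% of such stretches with other genes and Ly6e shared 0%. The deposited per-well reports list no multiply mapped reads, and how such reads were treated is not given in the sources used here, so UMIs of Ly6c1 and Ly6c2 are uncertain to the extent that reads from these stretches went to the other copy. Upstream of the gene start the 2 copies differ more. Over the 250 bases before the RefSeq start (GRCm38.p6, minus strand; Ly6c1 chr15:75048838-75049087, Ly6c2 chr15:75111972-75112221), 170 of 216 aligned bases were identical (78.7%). These windows are shown because the classes holding most UMIs differed between the 2 copies; capitals mark bases that differ or have no partner in the alignment.
Ly6c1: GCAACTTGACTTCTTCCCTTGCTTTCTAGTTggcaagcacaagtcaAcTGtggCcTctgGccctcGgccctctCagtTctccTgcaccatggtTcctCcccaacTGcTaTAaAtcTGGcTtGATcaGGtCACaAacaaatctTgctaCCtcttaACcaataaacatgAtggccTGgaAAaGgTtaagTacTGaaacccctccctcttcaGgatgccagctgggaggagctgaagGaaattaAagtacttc
Ly6c2: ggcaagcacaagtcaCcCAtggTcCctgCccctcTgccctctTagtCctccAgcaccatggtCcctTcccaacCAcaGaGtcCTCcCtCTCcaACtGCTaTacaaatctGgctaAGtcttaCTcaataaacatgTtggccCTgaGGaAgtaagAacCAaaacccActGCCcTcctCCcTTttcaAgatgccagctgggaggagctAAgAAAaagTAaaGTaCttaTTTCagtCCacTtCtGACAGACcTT

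The Ly6c2 window held 1 match on either strand to GAGGAAGT, letters of the kind bound by the myeloid factor PU.1, and the Ly6c1 window held 0; 2.44% of 32851 RefSeq windows of this length hold these letters. Neither window held TTCNNNGAA (the interferon gamma-activated site, in 7.02% of windows) or the core letters of the interferon-stimulated response element (in 2.98%). A match of letters is a description and not a bound site. The same windows of Ly6a and Ly6e are not used here.

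Wells were clustered without the 36 detected Ly6/uPAR genes, and clusters were named from marker genes. Wells named endothelial-like were led by Fabp4, Rbp7 and Gpihbp1, fibroblast-like wells by Col3a1, Gsn and Dcn, and neutrophil-like wells by S100a8 and S100a9. Macrophage-like wells were led by chemokine genes such as Ccl8 and Ccl12 and by Pf4, with 3 macrophage markers among the first 30 genes and 0 among the first 10. Cardiomyocyte-like wells were led by Myl7 and Tnni3 in one cluster and by Ttn and Myh6 in another.

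Of the 4 named NCM classes with at least 20 wells in every animal (endothelial-, fibroblast-, macrophage- and neutrophil-like), endothelial-like wells held the most Ly6a, Ly6c1 and Ly6e in each animal. Ly6a stood at 2153 and 2578 CPM in KO1 and KO2, against 3593 and 4615 in WT1 and WT2. In fibroblast-like wells Ly6a stood at 1264 and 1194 in KO1 and KO2, against 2143 and 1667 in WT1 and WT2. Endothelial-like wells were above fibroblast-like wells in every animal, by 1.70 and 2.16 times in KO1 and KO2 and by 1.68 and 2.77 times in WT1 and WT2. Neutrophil-like wells ranged over animals from 347 to 1278 CPM and macrophage-like wells from 115 to 748. The fibroblast-like and neutrophil-like ranges overlapped slightly, and the neutrophil-like and macrophage-like ranges overlapped widely.

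Ly6c1 followed the same order at its top. Endothelial-like wells held 2262 and 2174 CPM in KO1 and KO2, against 3450 and 6025 in WT1 and WT2. The next classes lay lower and overlapped each other, at 274 to 1269 CPM in neutrophil-like wells, 411 to 779 in fibroblast-like wells and 87.6 to 542 in macrophage-like wells. Endothelial-like wells were 40.1% and 18.1% of NCM wells in KO1 and KO2 and held 56.3% and 36.7% of the Ly6c1 UMIs. In WT1 and WT2 they were 9.97% and 22.5% of wells and held 36.5% and 73.7%.

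Ly6e had the same class at the top of these 4. It stood at 1469 and 1658 CPM in endothelial-like wells of KO1 and KO2, against 2011 and 3098 in WT1 and WT2. Neutrophil-like wells held 574 to 1314 CPM, macrophage-like wells 525 to 1137 and fibroblast-like wells 500 to 928, and these 3 ranges overlapped. Endothelial-like wells were 2.80 and 1.93 times macrophage-like wells for Ly6e in KO1 and KO2, and 3.79 and 2.72 times in WT1 and WT2. For Ly6c1 the same ratio was 4.36 and 4.01 in KO1 and KO2, and 39.4 and 50.5 in WT1 and WT2.

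Ly6c2 followed another order. Macrophage-like wells stood at 2.39 and 107 CPM in KO1 and KO2, against 172 and 57.7 in WT1 and WT2, and neutrophil-like wells at 111 and 105, against 84.2 and 0. The macrophage-like value of KO1 rests on 5 UMIs, and 1389 of the 1478 UMIs behind that of WT2 came from 1 well. The count of 0 in WT2 neutrophil-like wells allows up to 0.92 CPM. Endothelial-like wells held 10.7 and 14.0 in KO1 and KO2, against 22.8 and 16.2 in WT1 and WT2, and fibroblast-like wells 3.19 to 15.7. The animals of a class spread so widely that no neighbours in this order were separated. In endothelial-like wells 151 to 371 Ly6c1 UMIs were counted per Ly6c2 UMI, against 0.510 to 217 in macrophage-like wells.

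**Figure D1:**
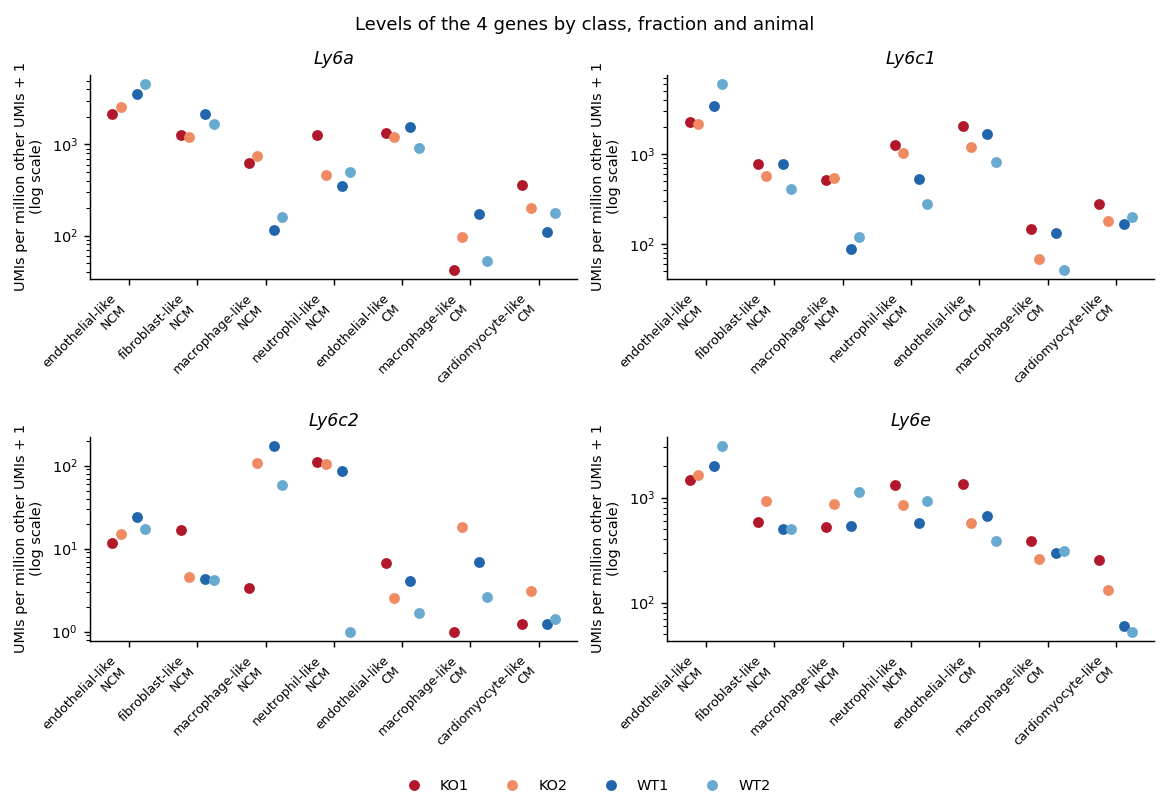
CPM (UMIs per 1000000 other UMIs), plus 1, on a log scale (y axis) for each of the 4 genes in each class and fraction (x axis); each point is 1 animal, KO1 and KO2 in red and orange and WT1 and WT2 in blue. Among the NCM classes plotted, Ly6a, Ly6c1 and Ly6e are highest in endothelial-like wells of each animal, where Ly6a runs from 2153 to 4615 CPM, while Ly6c2 reaches 172 CPM in macrophage-like NCM wells of WT1.

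The largest NCM cluster could not be named from markers and was not fitted. It had 150 and 253 wells in KO1 and KO2, against 183 and 158 in WT1 and WT2. Its Ly6a level ranged over animals from 329 to 1299 CPM. It held 11.8% and 23.7% of the NCM Ly6a UMIs in KO1 and KO2, against 2.23% and 4.45% in WT1 and WT2. Rarer classes were too small to fit. Endocardial-like NCM wells (12 and 20 in KO1 and KO2, 19 and 20 in WT1 and WT2) held Ly6a at 1202 and 144 CPM in KO, against 216 and 473 in WT. T or NK-like wells (12 and 8 in KO, 7 and 10 in WT) held Ly6e at 823 and 1376 in KO, against 924 and 1786 in WT. These values spread widely within each genotype. Ly6c2 in T or NK-like wells stood at 47.1 and 48.2 CPM in KO1 and KO2, against 691 and 54.0 in WT1 and WT2. It was above the endothelial-like wells of each animal. These values rest on 17 and 16 UMIs in KO and 258 and 72 in WT, those of WT1 from 2 of 7 wells. In B-like wells of KO1, 5 wells, Ly6e stood at 3839 CPM, above the endothelial-like wells of that animal, and the 1 B-like well of KO2 held Ly6c1 at 2450 CPM. A cluster led by the red-cell genes Bpgm and Alas2 had 54 and 121 wells in KO1 and KO2, against 2 and 5 in WT1 and WT2. It held 8.56% and 16.2% of the NCM Ly6a UMIs in KO1 and KO2, against 0.00353% and 1.92% in WT1 and WT2, and in KO1 its Ly6a level, 2174 CPM, was above the 2153 of endothelial-like wells.

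Within the fibroblast-like wells, Ly6a differed between the 2 clusters that make up the class. The cluster led by Gsn, Dcn and C7 held 1790 and 1997 CPM in KO1 and KO2, against 3877 and 2549 in WT1 and WT2. The cluster led by the matrix genes Col3a1, Postn and Cthrc1 held 723 and 608 in KO1 and KO2, against 926 and 383 in WT1 and WT2. The Gsn and Dcn cluster was higher in all 4 animals, for Ly6c1 as well, at 1272 and 1056 in KO and 1457 and 651 in WT, with 243 and 213 in KO and 303 and 61.8 in WT in the Col3a1 cluster. The clusters were made from the genes of the same wells, so these values are a description.

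The share of wells with at least 1 UMI of a gene moves with depth, so wells were thinned to 5000 other UMIs. In endothelial-like NCM wells the thinned share positive for Ly6c1 was 83.0% and 86.6% in KO1 and KO2, against 82.6% and 89.9% in WT1 and WT2. In cardiomyocyte-like CM wells, a class not known to make Ly6c1, it was 25.6% and 32.5% in KO1 and KO2, against 19.3% and 24.4% in WT1 and WT2. In macrophage-like NCM wells it was 37.1% and 57.1% in KO1 and KO2, against 21.6% and 24.7% in WT1 and WT2. The share in endothelial-like wells was above that of cardiomyocyte-like wells in every animal; the cardiomyocyte-like wells come from the chips of the other fraction. Thinning left out 5 and 1 endothelial-like wells in KO1 and KO2 and 0 in WT; without it the Ly6c1 share was 94.4% and 98.5% in KO1 and KO2, against 97.1% and 96.8% in WT1 and WT2. Median depth before thinning was 22974 and 37723 other UMIs in endothelial-like KO wells, against 41888 and 53042 in WT, and in cardiomyocyte-like wells 20101 and 128601 in KO, against 52527 and 73499 in WT. Of thinned endothelial-like wells, both Ly6a and Ly6c1 were present in 193 of 282 and 99 of 134 in KO1 and KO2, against 54 of 69 and 125 of 158 in WT1 and WT2.

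The genes most alike to each member were sought over 32 sums of animal, fraction and class, which share libraries and depth, among 5836 genes; Pearson's r of log2 levels is given as a description. Ly6a was closest to Slc43a3 (r = 0.91), Sparcl1 (0.91), Ly6c1 (0.89), and the basement membrane collagen genes Col4a2 and Col4a1 (0.89 each). Ly6c1 was closest to Col4a1 (0.90), the caveolar coat gene Cav1 (0.90), Ly6a (0.89), Col4a2 (0.89) and Tmem88 (0.87). Ly6c2 was closest to Pilrb2 (0.81), the leukocyte migration gene Dock2 (0.79), Lpcat2 (0.75), Fam49b (0.72) and the monocyte chemokine receptor gene Ccr2 (0.72). Its r with Ly6c1 was 0.07. Genes close to Ly6e were Gm49342 (0.84), H2-T23 (0.83), Myl12b (0.83) and ENSMUSG00000062381 (0.83).

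Over all NCM wells of an animal, the genotypes did not separate in level for any member. Ly6a stood at 1525 and 1319 CPM in KO1 and KO2, against 1338 and 1501 in WT1 and WT2. Ly6c1 stood at 1361 and 848 in KO, against 699 and 1220 in WT, and Ly6e at 1011 and 1012 in KO, against 689 and 1205 in WT. Every one of these KO ranges overlapped its WT range. For Ly6c2 the values were 15.7 and 28.8 in KO, against 56.7 and 21.8 in WT. The fitted log2 differences, KO over WT, were -0.16 (SE 0.18) for Ly6a, 0.02 (SE 0.33) for Ly6c1, -0.95 (SE 0.57) for Ly6c2 and -0.07 (SE 0.30) for Ly6e, with edgeR adjusted p of 0.752, 0.989, 0.529 and 0.951. In this comparison 0% of 17216 genes passed an adjusted p of 0.05 in edgeR, with 2075 at an unadjusted p under 0.05, and DESeq2 called 761. A fraction level mixes the make-up of the wells with the RNA in each: fewer cells of a type and less RNA per cell cannot be told apart.

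Within endothelial-like NCM wells, all 4 members were lower in both KO animals than in both WT animals, an order that 16.1% of the 12580 genes tested also showed. The per-animal levels are those given above. The fitted log2 difference was -0.96 (SE 0.23) for Ly6a, -1.26 (SE 0.27) for Ly6c1, -0.87 (SE 0.27) for Ly6e and -0.83 (SE 0.95) for Ly6c2. None passed in edgeR: the adjusted p was 0.494 for Ly6a, Ly6c1 and Ly6e and 0.823 for Ly6c2, and 0% of genes were called, with 1123 at an unadjusted p under 0.05 and 418 called by DESeq2, none of them a member. Ly6c1 ranked 32nd and Ly6a 72nd of all genes by p. Without the filter on low counts the edgeR adjusted p was 0.00593 for Ly6a, 1.99e-05 for Ly6c1 and 0.0497 for Ly6e. The median over wells was lower in KO as well, at 1270 and 1730 CPM for Ly6a in KO1 and KO2, against 3530 and 3718 in WT1 and WT2.

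Other measures moved with this difference. Mitochondrial genes took 64.5% and 43.4% of UMIs in endothelial-like wells of KO1 and KO2, against 9.60% and 14.0% in WT1 and WT2. The 11 endothelial markers together stood at 10109 and 7620 CPM in KO1 and KO2, against 11804 and 14376 in WT1 and WT2, with 6 of 11 lower in both KO animals and 1, Flt1, higher. Fabp4 made up most of this sum, at 6116 and 4427 CPM in KO1 and KO2, against 7395 and 9444 in WT1 and WT2. Kdr and Cdh5 were among the markers that overlapped, Kdr at 800 and 551 in KO, against 570 and 614 in WT. Ratios to the sum therefore rest mostly on Fabp4. Per endothelial marker UMI, Ly6a stood at 0.213 and 0.338 in KO1 and KO2, against 0.304 and 0.321 in WT1 and WT2, which overlap. Ly6c1 stood at 0.224 and 0.285 per marker UMI in KO, against 0.292 and 0.419 in WT, and Ly6e at 0.145 and 0.218 in KO, against 0.170 and 0.216 in WT. Macrophage markers summed to 1869 and 1417 CPM in these wells in KO, against 866 and 958 in WT, with 8 of 9 higher in both KO animals. Fibroblast markers summed to 5218 and 6939 in KO, against 4806 and 2711 in WT, with 4 of 10 higher in both KO animals; cardiomyocyte markers summed to 2770 and 5283 in KO, against 2631 and 3277 in WT, with 5 of 10 higher. No marker of these sets was at 0 in every animal. The part of these in the result was not tested. In wells under 50% mitochondrial UMIs (29 and 76 in KO, 68 and 155 in WT) the log2 difference was -0.77 for Ly6a, -1.47 for Ly6c1 and -0.92 for Ly6e. Gpihbp1, which encodes the Ly6/uPAR protein that carries lipoprotein lipase to the capillary lumen, stood at 2345 and 3036 CPM in KO, against 3727 and 5367 in WT (log2 difference -0.91, SE 0.26, edgeR adjusted p 0.494).

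**Figure D2:**
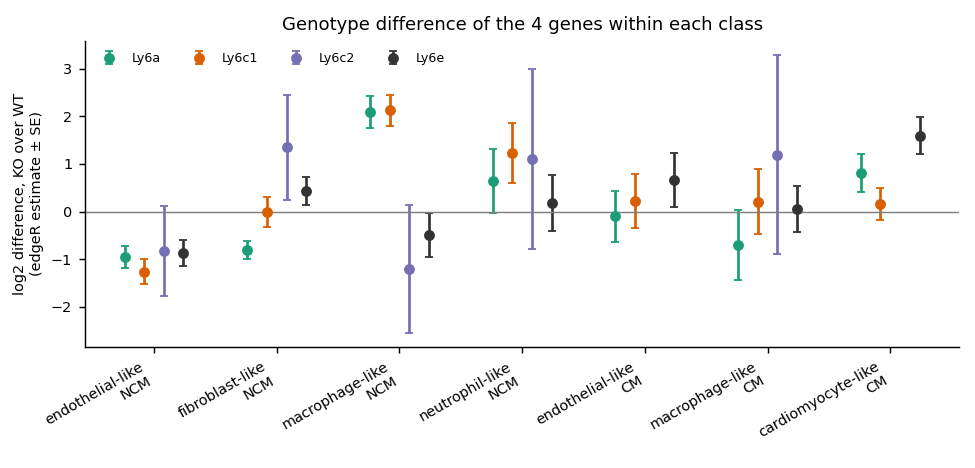
Fitted log2 difference, KO over WT, with its standard error (y axis) for each member in each class and fraction (x axis), from 2 KO and 2 WT animals; Ly6c2 was not fitted in endothelial-like or cardiomyocyte-like CM wells. In NCM wells Ly6a and Ly6c1 lie below 0 in endothelial-like wells (-0.96 and -1.26) and above 0 in macrophage-like wells (2.10 and 2.12).

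In fibroblast-like NCM wells Ly6a was lower in both KO animals, as given above, and Ly6c2 and Ly6e were higher in both. The log2 difference for Ly6a was -0.80 (SE 0.19, edgeR adjusted p 0.423), and 18.5% of 14244 genes had both KO animals below both WT animals. Ly6e stood at 584 and 928 CPM in KO1 and KO2, against 500 and 500 in WT1 and WT2 (log2 difference 0.44, edgeR adjusted p 0.647), and Ly6c2 at 15.7 and 3.54, against 3.31 and 3.19; 24.7% of genes had both KO animals above both WT animals. Ly6c1 overlapped, at 765 and 569 in KO and 779 and 411 in WT. In edgeR 0% of genes passed, with 1486 at an unadjusted p under 0.05, and DESeq2 called 515; without the filter on low counts Ly6a had an edgeR adjusted p of 0.0304. The thinned share of wells with Ly6a went the other way, at 75 of 98 and 93 of 124 wells in KO, against 100 of 155 and 84 of 120 in WT, so no order is read from the share. Endothelial markers summed to 1622 and 1137 CPM in these wells in KO, against 256 and 424 in WT. In the wells where those markers were under 0.05% of other UMIs (25 and 36 in KO, 123 and 83 in WT), Ly6a stood at 1196 and 712 in KO, against 2154 and 1557 in WT.

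In macrophage-like NCM wells Ly6a and Ly6c1 stood several times higher in KO animals. Ly6a stood at 618 and 748 CPM in KO1 and KO2, against 115 and 157 in WT1 and WT2. Ly6c1 stood at 519 and 542 in KO, against 87.6 and 119 in WT. Neither pair overlapped, an order that 21.8% of 12083 genes showed. The log2 difference was 2.10 (SE 0.33) for Ly6a and 2.12 (SE 0.33) for Ly6c1, with an edgeR adjusted p of 0.487 for both; DESeq2 gave 0.0109 and 0.00809, and edgeR with no filter on low counts 3.51e-05 and 0.000161. Ly6e overlapped, at 525 and 861 in KO and 530 and 1137 in WT, as did Ly6c2. In edgeR 0.00828% of genes passed, 1 gene, which is not a member, with 1072 at an unadjusted p under 0.05 and 436 called by DESeq2.

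Endothelial markers were higher in the same macrophage-like wells. They summed to 2284 and 1605 CPM in KO1 and KO2, against 264 and 362 in WT1 and WT2, with 11 of 11 higher in both KO animals. Fabp4 made up most of this sum too, at 1448 and 830 in KO, against 144 and 258 in WT. Other marker sets were higher as well. Cardiomyocyte markers summed to 2396 and 2503 CPM in KO, against 756 and 1470 in WT, with 7 of 10 higher in both KO animals. Fibroblast markers summed to 1986 and 3239 in KO, against 1267 and 1317 in WT, with 4 of 10 higher and 1 lower in both KO animals. The part of these sets in the result was not tested. Ly6a per endothelial marker UMI stood at 0.270 and 0.466 in KO, against 0.437 and 0.435 in WT, and Ly6c1 at 0.227 and 0.338 in KO, against 0.3325 and 0.329 in WT. Ly6e gave 0.230 and 0.537 per marker UMI in KO, against 2.01 and 3.14 in WT. Where endothelial markers were under 0.05% of other UMIs, which left 4 and 9 macrophage-like wells in KO1 and KO2 and 77 and 61 in WT1 and WT2, Ly6a stood at 130 and 41.7 CPM in KO, against 103 and 140 in WT. Ly6c1 there stood at 32.5 and 366 in KO, against 79.4 and 106 in WT. This split was chosen after seeing the data and leaves few KO wells, and nothing is read from it. Mitochondrial genes took 42.6% and 25.3% of UMIs in these macrophage-like wells in KO, against 3.76% and 5.53% in WT; their part in the result was not tested.

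**Figure D3:**
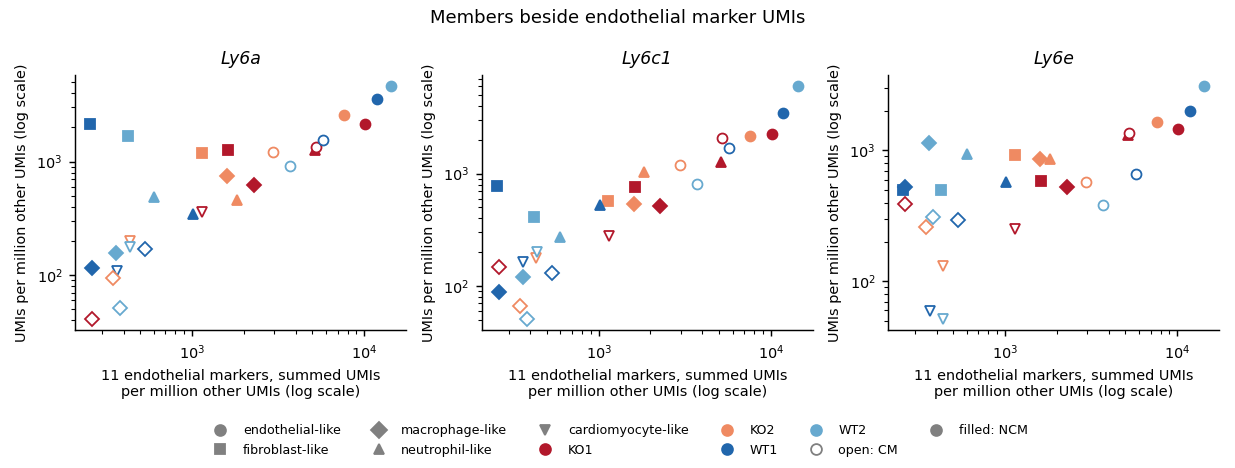
Level of Ly6a, Ly6c1 and Ly6e (y axes) against the summed level of 11 endothelial markers (x axes), both in CPM on log scales; each point is 1 animal in 1 class, filled for NCM and open for CM, KO in red and orange and WT in blue. Macrophage-like KO points (618 and 748 for Ly6a) lie at 2284 and 1605 CPM of endothelial markers, to the right of the WT points at 264 and 362. Fibroblast-like WT points for Ly6a (2143 and 1667) lie at 256 and 424 CPM of endothelial markers. They are above the macrophage-like WT points (115 and 157) and below the endothelial-like WT points (3593 and 4615).

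The difference in genotype effect between classes was tested with the animal as a block. Between endothelial-like and macrophage-like NCM wells, the effect differed by -3.03 on the log2 scale for Ly6a (SE 0.25, edgeR adjusted p 0.0111) and by -3.31 for Ly6c1 (SE 0.25, adjusted p 0.00725). These were 2 of 12 genes called, 0.0875% of 13717. Ly6e differed by -0.37 (adjusted p 0.952) and Ly6c2 by 1.82 (adjusted p 0.954). The calls did not hold without KO1, without KO2 or in wells under 50% mitochondrial UMIs (-2.87 and -3.60, edgeR adjusted p 0.0686 for both). Fits without WT1 or WT2 leave 1 WT animal, so their calls are not read. With each animal left out in turn the difference ran from -3.15 to -2.89 for Ly6a and from -3.40 to -3.21 for Ly6c1. The endothelial, cardiomyocyte and fibroblast marker levels in macrophage-like wells given above move with it, and their part was not tested. Against fibroblast-like wells the effect differed by -1.26 for Ly6e (SE 0.28, adjusted p 0.584), by -1.29 for Ly6c1 (0.907) and by -0.20 for Ly6a (1.00); 0% of 14696 genes passed in edgeR, 804 having an unadjusted p under 0.05. With each animal left out in turn the Ly6c1 difference ran from -2.06 to -0.49. Against neutrophil-like wells the effect differed by -2.38 for Ly6c1 (SE 0.58, edgeR adjusted p 0.142) and by -1.43 for Ly6a (0.853). In that comparison 0.169% of 12989 genes were called. With each animal left out in turn the Ly6c1 difference ran from -3.22 to -1.59.

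Neutrophil-like NCM wells were few, 33 and 22 in KO1 and KO2, against 74 and 40 in WT1 and WT2. Ly6c1 stood at 1269 and 1027 CPM in KO, against 525 and 274 in WT (log2 difference 1.23, SE 0.62, edgeR adjusted p 0.716), an order seen for 20.4% of 8420 genes. Ly6a stood at 1278 and 456 in KO, against 347 and 492 in WT. In edgeR 0% of genes passed, with 654 at an unadjusted p under 0.05, and DESeq2 called 331, 0 of them members. Endothelial markers summed to 5166 and 1833 CPM in neutrophil-like wells of KO1 and KO2, against 1018 and 599 in WT1 and WT2. Their part in the result was not tested. Only 2 and 3 of the KO wells had endothelial markers under 0.05%, against 44 and 31 of the WT wells. In those wells Ly6c1 stood at 39.8 and 96.0 in KO, against 176 and 154 in WT. Nothing is read from so few KO wells.

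Ly6c2 lay in a few wells. The 10 wells with most Ly6c2 held 73.4% and 52.6% of its NCM UMIs in KO1 and KO2, against 74.6% and 86.0% in WT1 and WT2. Wells with at least 20 Ly6c2 UMIs numbered 5 and 22 in KO, against 23 and 8 in WT, and 0 and 7 of them were macrophage-like in KO, against 12 and 2 in WT. The highest WT2 well, which is macrophage-like, alone held 1389 UMIs. Ly6c2 in macrophage-like wells had a log2 difference of -1.20, with values of 2.39 and 107 in KO and 172 and 57.7 in WT, so KO1 and KO2 differed more from each other than the genotypes did.

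The 21 macrophage-like NCM wells with at least 20 Ly6c2 UMIs, a cut chosen after the values were seen, were set beside the 243 others, summed over animals. Of the 21 wells 0 came from KO1, 7 from KO2, 12 from WT1 and 2 from WT2. The 2 groups thus differ in their animals as well. They held Ly6c2 at 1048 CPM, against 2.93 in the others, which the cut itself fixes. Of the 6 listed monocyte markers 5 were higher in them. Ccr2, a chemokine receptor that brings monocytes out of the marrow, stood at 231 CPM, against 144 in the others, Plac8 at 164 against 46.4, Chil3 at 526 against 103 and Vcan, a matrix proteoglycan gene, at 373 against 39.0. F13a1, also listed as a monocyte marker, went the other way at 560 against 964. Genes of mature tissue macrophages were lower, with the complement gene C1qb at 1185 against 6081, the mannose receptor gene Mrc1 at 64.2 against 599 and Csf1r at 225 against 527. Ly6a, Ly6c1 and Ly6e stood at 127, 111 and 732 CPM in the Ly6c2 wells, against 229, 172 and 878 in the others. Since wells of 1 animal are not replicates, no test was made.

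**Figure D4:**
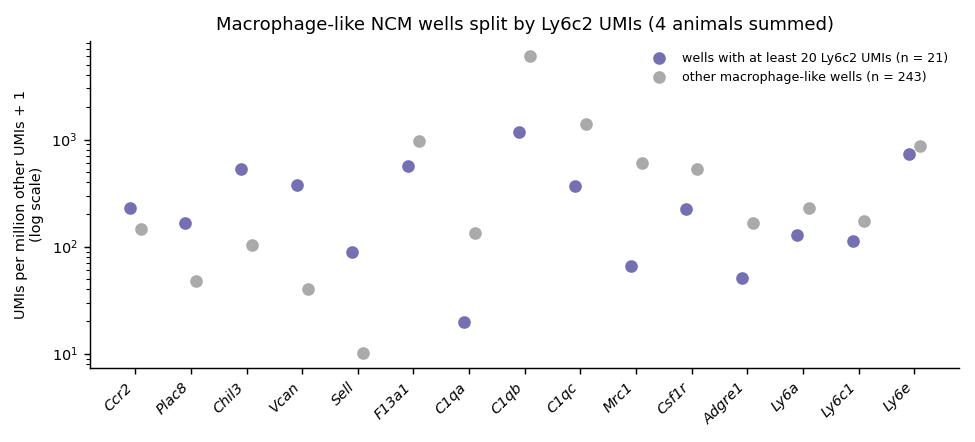
CPM (UMIs per 1000000 other UMIs), plus 1, on a log scale (y axis) for monocyte genes (Ccr2 to F13a1), macrophage genes (C1qa to Adgre1) and the other members (x axis), in 21 macrophage-like NCM wells with at least 20 Ly6c2 UMIs (purple) and 243 others (grey). Animals were summed, with no replicates, and 0 of the 21 wells came from KO1. Chil3 is higher in the Ly6c2 wells (526 against 103) and C1qb lower (1185 against 6081).

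In the CM fraction the members stood lower than in NCM, and endothelial-like wells held a larger share of Ly6c1 UMIs than of wells. Those wells were 26.5% and 16.9% of CM wells in KO1 and KO2 and 13.8% and 8.03% in WT1 and WT2, and held 69.2% and 54.1% of the Ly6c1 UMIs in KO, against 57.4% and 28.7% in WT. Over all CM wells Ly6a stood at 580 and 366 CPM in KO1 and KO2, against 323 and 300 in WT1 and WT2. Ly6c1 stood at 684 and 320 in KO, against 298 and 282 in WT, and Ly6e at 561 and 214 in KO, against 216 and 115 in WT. Ly6a and Ly6c1 did not overlap, an order that 15.8% of 14462 genes showed, and the KO1 and KO2 values of Ly6e lay on both sides of WT1. The log2 differences were 0.46 for Ly6a, 0.62 for Ly6c1 and 1.05 for Ly6e (SE 0.48, edgeR adjusted p 0.999); 0% of genes passed, with 498 at an unadjusted p under 0.05 and 66 called by DESeq2.

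Within endothelial-like CM wells the groups overlapped. Ly6a stood at 1342 and 1216 CPM in KO1 and KO2, against 1548 and 912 in WT1 and WT2, and Ly6c1 at 2070 and 1206 in KO, against 1683 and 810 in WT. The log2 differences were -0.10 and 0.23, and 0.67 for Ly6e. In this class 0% of 9887 genes passed in edgeR, with 395 at an unadjusted p under 0.05 and 41 called by DESeq2. Macrophage-like CM wells overlapped too, with Ly6c1 at 146 and 66.4 in KO, against 132 and 51.0 in WT, and 0% of 9561 genes passed (366 at an unadjusted p under 0.05, 82 by DESeq2).

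In cardiomyocyte-like CM wells Ly6e was higher in both KO animals, at 252 and 132 CPM in KO1 and KO2, against 59.5 and 51.9 in WT1 and WT2. Ly6a was as well, at 362 and 200 in KO, against 109 and 176 in WT; 19.8% of 12497 genes showed this order. Ly6c1 overlapped, at 278 and 178 in KO and 164 and 199 in WT. The log2 difference was 1.60 for Ly6e (SE 0.39) and 0.80 for Ly6a (SE 0.40), with an edgeR adjusted p of 0.936 for both; 0% of genes passed, with 535 at an unadjusted p under 0.05 and 99 called by DESeq2. Ly6e ranked 24th of all genes by p, and DESeq2 gave it an adjusted p of 0.137. The thinned share of wells with Ly6e was 31.0% and 28.8% in KO, against 14.3% and 17.8% in WT, with an exact two-sided permutation p of 0.33, the smallest that 2 against 2 allows. Endothelial markers summed to 1146 and 435 CPM in these wells in KO, against 365 and 436 in WT, and Ly6e per endothelial marker UMI stood at 0.220 and 0.303 in KO, against 0.163 and 0.119 in WT. Mitochondrial genes took 60.4% and 38.4% of UMIs there in KO, against 47.0% and 42.4% in WT; the part of these in the result was not tested.

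The fractions are set side by side within a class, CM over NCM, with the animal as a block in the fit; the fraction is also the chip, and since the members were selected on levels by fraction, their differences are a description with no test. In endothelial-like wells the log2 difference was -0.89 (SE 0.28) for Ly6a, -0.78 (SE 0.36) for Ly6c1, -2.43 (SE 1.11) for Ly6c2 and -1.14 (SE 0.37) for Ly6e. The median of all genes there was -0.30, and 4.58% of 13473 genes passed an edgeR adjusted p of 0.05, 449 higher and 168 lower in CM. Scaled by library totals, the difference was -1.32 for Ly6a and -1.56 for Ly6e. In macrophage-like wells Ly6c2 stood at 0, 17.4, 5.92 and 1.59 CPM in CM wells of KO1, KO2, WT1 and WT2, against 2.39, 107, 172 and 57.7 in NCM wells. Each animal had a lower value in its CM wells, although that of KO1 rests on 0 UMIs in CM against 5 in NCM, near the floor. The log2 difference was -4.15 (SE 0.75) for Ly6c2, -1.86 (SE 0.65) for Ly6a, -1.21 (SE 0.52) for Ly6c1 and -1.05 (SE 0.32) for Ly6e. Of 12056 genes 2.31% passed there, 246 higher and 32 lower in CM, and nothing about the members is read from that share.

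The rest of the family was mostly near absent. Of 19 other Ly6/uPAR genes listed for the chromosome 15 cluster, 13 had a column and 13 had at least 1 UMI. Gpihbp1 was the highest, at 887 CPM on average over NCM animals, and the other 12 averaged at most 25.1 CPM there. Named after their values were seen, Ly6g, the neutrophil antigen gene, had 1 UMI in all kept wells, although neutrophil-like wells were present. Ly6d, a B lineage antigen gene, was counted at 220 and 0 CPM in B-like wells of KO1 and KO2, against 1623 and 2868 in WT1 and WT2, from 5, 1, 4 and 6 wells. Of 19 listed family genes elsewhere in the genome, 18 had a column, led by Plaur, the urokinase receptor gene, at 145 CPM in NCM wells, and Cd59a, a complement inhibitor gene, at 49.5.

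Over NCM wells Plaur stood at 96.3 and 99.2 CPM in KO1 and KO2, against 179 and 204 in WT1 and WT2 (log2 difference -1.13, SE 0.23, edgeR adjusted p 0.339). Of the other chromosome 15 genes 6 were tested there, 3 higher and 3 lower in KO, and of those elsewhere 7, 5 higher and 2 lower, with 0 called in any comparison. Genes that build or attach the GPI anchor showed no common direction over NCM wells, with 13 of 27 tested higher and 14 lower, a median log2 difference of -0.05 against -0.01 over all genes, and 0 called. In endothelial-like wells 11 of 21 were higher and 10 lower (median 0.23, against -0.03). Of 18 interferon receptors and signal transducers 12 were higher and 6 lower over NCM wells (median 0.21, against -0.01 over all genes), with 0 called. In endothelial-like wells 10 of 17 were higher (median 0.13, against -0.03), with 0 called.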

How the data were processed

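Each library was a chip of single-cell wells from 2 animals, and the authors deposited UMI counts per gene and well with a report naming each well's animal; per the submitters' processing notes they used STAR 2.5.2b, featureCounts and Subread 1.4.6-p1 with mm10; whether counting used strand is not given in the sources used here. Of the 4315 wells deposited, 3990 were kept; spike-in and control wells were left out of sums. The members and gene lists were chosen with earlier results of these data known. The rule for naming other genes was likeness to a member over the 32 sums, and, in each list, passing the test or the highest mean level. One gene that the rule names for Ly6e is not reported here.

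Wells were clustered with scanpy 1.11.5 and leidenalg 0.10.2 (2000 variable genes, 30 components, resolution 1). Counts were summed per animal, fraction and class with at least 20 wells in every animal, and tested with edgeR 4.0.16 (quasi-likelihood, TMM, filterByExpr, Benjamini-Hochberg over all genes tested, threshold 0.05); DESeq2 1.42.0 was an alternative. The fit was tested on simulated data. With 2 animals against 2 the smallest exact two-sided permutation p is 0.33. Nothing says that animals were handled apart, so p-values measure the spread between these animals only. Animals of a genotype shared a chip within a fraction, so differences between chips are not part of that spread. The limit given beside a count of 0 is 3 counts of the total and covers counting error only. Alternatives were other scaling, filters on wells and counts, DESeq2, a replicate block, other clustering, thinning depths and leaving out each animal. Those for mitochondrial shares under 50% and for few endothelial marker UMIs were chosen after seeing the data.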

Additional observations from a re-analysis of the deposited data

Results flagged for a closer look

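The genotype effect on Ly6a and Ly6c1 differed between endothelial-like and macrophage-like NCM wells by the test of that difference. The members were selected with the levels of single animals by class in view, so this test is no independent evidence for them. The log2 difference, KO over WT, was -0.96 in endothelial-like wells and 2.10 in macrophage-like wells for Ly6a, a difference of -3.03 (SE 0.25, edgeR adjusted p 0.0111). For Ly6c1 it was -1.26 and 2.12, a difference of -3.31 (SE 0.25, edgeR adjusted p 0.00725). The direction held without each animal in turn, with differences of -3.15 to -2.89 for Ly6a and -3.40 to -3.21 for Ly6c1. The edgeR call was lost without KO1 or KO2 and in wells under 50% mitochondrial UMIs. Endothelial markers stood at 2284 and 1605 CPM in macrophage-like wells of KO1 and KO2, against 264 and 362 in WT1 and WT2, and their part in the difference was not tested. Cardiomyocyte and fibroblast marker sums were higher there in both KO animals too, and their part was not tested either.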

How the results depend on the processing

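Genes called, in the order NCM, endothelial-, fibroblast-, macrophage- and neutrophil-like NCM, then CM, cardiomyocyte-, endothelial- and macrophage-like CM wells, were 0, 0, 0, 1, 0, 0, 0, 0 and 0 in edgeR, and 761, 418, 515, 436, 331, 66, 99, 41 and 82 with DESeq2. They were 226, 214, 291, 159, 113, 47, 92, 25 and 20 with no filter on low counts. In macrophage-like NCM wells edgeR called 0 under library totals and 0 with mitochondrial and haemoglobin genes kept. For the genotype effect between endothelial-like and macrophage-like wells it called 0 in wells under 50% mitochondrial UMIs. Over these 9 comparisons the median log2 difference of all genes was -0.075 to 0.0090 under TMM scaling and 0.043 to 0.24 under library totals.

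Of 415 alternative values for the members, KO over WT, 373 kept direction and side of the threshold, 10 gained a call, 0 lost one and 32 turned direction. Under library totals the log2 difference was 0.0031 for Ly6a and 0.095 for Ly6e over NCM wells, 0.16 for Ly6c1 in fibroblast-like NCM and 0.056 for Ly6a in endothelial-like CM wells. Over NCM wells Ly6c1 was -0.071 with no filter and -0.21 in wells under 50% mitochondrial UMIs. In those wells it was 0.016 for Ly6c1 in fibroblast-like NCM and 0.058 for Ly6a in endothelial-like CM wells, and the genotype effect on Ly6a against fibroblast-like wells was 0.015. In fibroblast-like NCM wells Ly6c1 was 0.0048 with DESeq2 and 0.0014 without doublets; over CM wells under 30% mitochondrial UMIs it was -0.18. The cause was not tested.

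Animals are numbered 1 and 2 within each genotype, whereas the replicate numbers of the samples count libraries and pair no animals. Deviations of same-numbered animals correlated at -0.04 to 0.05 in NCM sums and 0.11 to 0.55 in CM sums, highest over all CM wells. With 2 pairs these values cannot tell whether same-numbered animals were handled as pairs, and the main genotype fits use no pairing. With the replicate block edgeR called 39 genes in macrophage-like and 13 in neutrophil-like NCM wells, with an adjusted p of 0.0171 for Ly6a and 0.0211 for Ly6c1 in macrophage-like wells, where log2 differences were 2.11 and 2.15. Under the block Ly6c1 was 0.048 in fibroblast-like NCM and Ly6c2 -0.48 in macrophage-like CM wells.

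Leaving out each animal in turn, genes called ranged from 0 to 1 in NCM, 0 to 4 in endothelial-like, 0 to 1 in fibroblast-like, 0 to 4 in macrophage-like and 9 to 65 in neutrophil-like NCM wells, and from 0 to 4 in cardiomyocyte-like and 1 to 362 in macrophage-like CM wells. For the genotype effect they ranged from 2 to 36 against fibroblast-like, 0 to 119 against macrophage-like and 19 to 80 against neutrophil-like wells, and for CM against NCM from 336 to 602 in endothelial-like and 42 to 452 in macrophage-like wells. Log2 differences that turned ranged, over NCM wells, from -0.35 to 0.50 for Ly6c1 and -0.44 to 0.41 for Ly6e; in fibroblast-like NCM from -0.37 to 0.46 for Ly6c1, -0.013 to 2.00 for Ly6c2 and -0.047 to 0.76 for Ly6e; and for Ly6e from -1.01 to 0.20 in macrophage-like and -0.21 to 0.55 in neutrophil-like NCM wells. In CM wells they ranged from -0.26 to 1.64 for Ly6c2, in endothelial-like CM from -0.24 to 0.023 for Ly6a and -0.012 to 0.45 for Ly6c1, and in macrophage-like CM from -1.42 to 0.25, -0.47 to 0.88, -6.74 to 2.27 and -0.26 to 0.31 for Ly6a, Ly6c1, Ly6c2 and Ly6e. The genotype effect ranged from -0.47 to 0.10 for Ly6a against fibroblast-like and -0.45 to 4.65 for Ly6c2 against macrophage-like wells.

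KO minus WT shares of positive wells were counted for Ly6a, Ly6c1 and Ly6e only. The wells were all NCM wells, endothelial-, fibroblast- and macrophage-like NCM wells and cardiomyocyte-like CM wells. The shares turned in 5 of 45 alternatives. Without thinning they turned to -2.39 percentage points for Ly6c1 in fibroblast-like and -2.88 for Ly6a in macrophage-like wells. For Ly6e in macrophage-like wells they turned to 1.65 thinned to 2000, 0.50 without thinning and 0.99 at 2 UMIs. Ly6c2, not counted here, turned without thinning from 3.18 to -5.68 in fibroblast-like wells and from 0.78 to -2.74 over NCM wells. In neutrophil-like wells with few endothelial marker UMIs mean Ly6c1 was 116 CPM. Wells under 30% mitochondrial UMIs could not be fitted in most classes, nor macrophage- and neutrophil-like classes with Ly6 genes clustered.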
